A study of Mus musculus with 3 samples.

Results

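The genes described here are 37 genes of glycolysis and of the response to low oxygen, chosen as a fixed list of symbols and read from every array probe that matched them. They stand among 20284 named genes on the array. Of the 37, 23 act in glucose uptake, glycolysis or the fate of pyruvate and lactate, 13 are other targets of hypoxia-inducible factor (HIF), and 1, Hif1a, encodes a HIF subunit. RNA came from male mouse embryonic stem cells and was hybridised to 3 1-colour arrays, 1 per group. The groups were Pcgf6KO+ Pcgf6_flag (edited cells infected with a lentivirus for Pcgf6 with a Flag tag), Pcgf6KO (cells edited with Cas9 technology) and wildtype. All 3 were grown with leukemia inhibitory factor and serum on feeder fibroblasts blocked with mitomycin C, and no low-oxygen treatment is named in the labels. The sources used here do not say whether each edited line is 1 clone. With 1 array per group, no difference below has a replicate check and no p-value is given. In the mixed RNA of such a culture, fewer cells of a type and less RNA per cell cannot be told apart.

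Glycolysis breaks glucose down to pyruvate in the cytosol. Glucose enters through facilitative transporters, is trapped by hexokinase and is split into triose phosphates, and pyruvate is then either sent to the mitochondria or reduced to lactate and exported. HIF is a heterodimer whose alpha subunit is hydroxylated by the Egln prolyl hydroxylases when oxygen is present and is then degraded through the Vhl ubiquitin ligase. When oxygen is short the alpha subunit persists, pairs with Arnt and activates genes that carry hypoxia response elements, among them most glycolytic enzymes, Vegfa, Bnip3 and the hydroxylase genes themselves. Mouse embryonic stem cells are known for strong glycolytic activity. Pcgf6 is the Polycomb group RING finger subunit that defines the variant complex PRC1.6.

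A level here is log2 of the processed spot signal minus the array's 75th percentile, so 0 is the 75th percentile of that array. A difference is the first named array minus the second, and 2-fold corresponds to 1 on this scale. Pcgf6 itself, on its single probe, had a level of 0.42 on the array labelled Pcgf6KO+ Pcgf6_flag, 0.84 in Pcgf6KO and 1.87 in wildtype. A level above that of Pcgf6KO was therefore not seen on this probe, whose place relative to the edit and the transgene the sources used here do not give, and the group name of that array is used as a label only. All 12 embryonic stem cell markers were well above background on all 3 arrays. Of 13 skeletal muscle markers, which were examined because a source field names muscle, 5 to 7 were. Pcgf6KO and wildtype shared slide 1 and the array labelled Pcgf6KO+ Pcgf6_flag lay on slide 2, so slide and group cannot be told apart in comparisons with it. Single spots of one probe repeated within an array with a pooled SD of 0.09 to 0.10. The difference of single spots between arrays had an SD of 0.10 for Pcgf6KO against wildtype and 0.12 for the comparisons with the array labelled Pcgf6KO+ Pcgf6_flag.

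The 37 genes were read by 55 probes, and 52 of these were well above background on all 3 arrays. Of the genes, 36 were measured on all 3 arrays. The exception was Slc16a1, which encodes a monocarboxylate transporter. Its only probe gave signals of 27.1 on the array labelled Pcgf6KO+ Pcgf6_flag, 22.2 in Pcgf6KO and 14.0 in wildtype, none of them well above background. Where a gene had several probes, the one with the highest mean level was used. The range over the 3 arrays was under 0.5 in 18 of 36 members and at least 1 in 5, Eno2, Pfkfb3, Vegfa, Adm and P4ha2. The median range was 0.50 for the members and 0.43 for all genes measured on all 3 arrays, of which 18.4% had a range of at least 1.

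**Figure D1:**
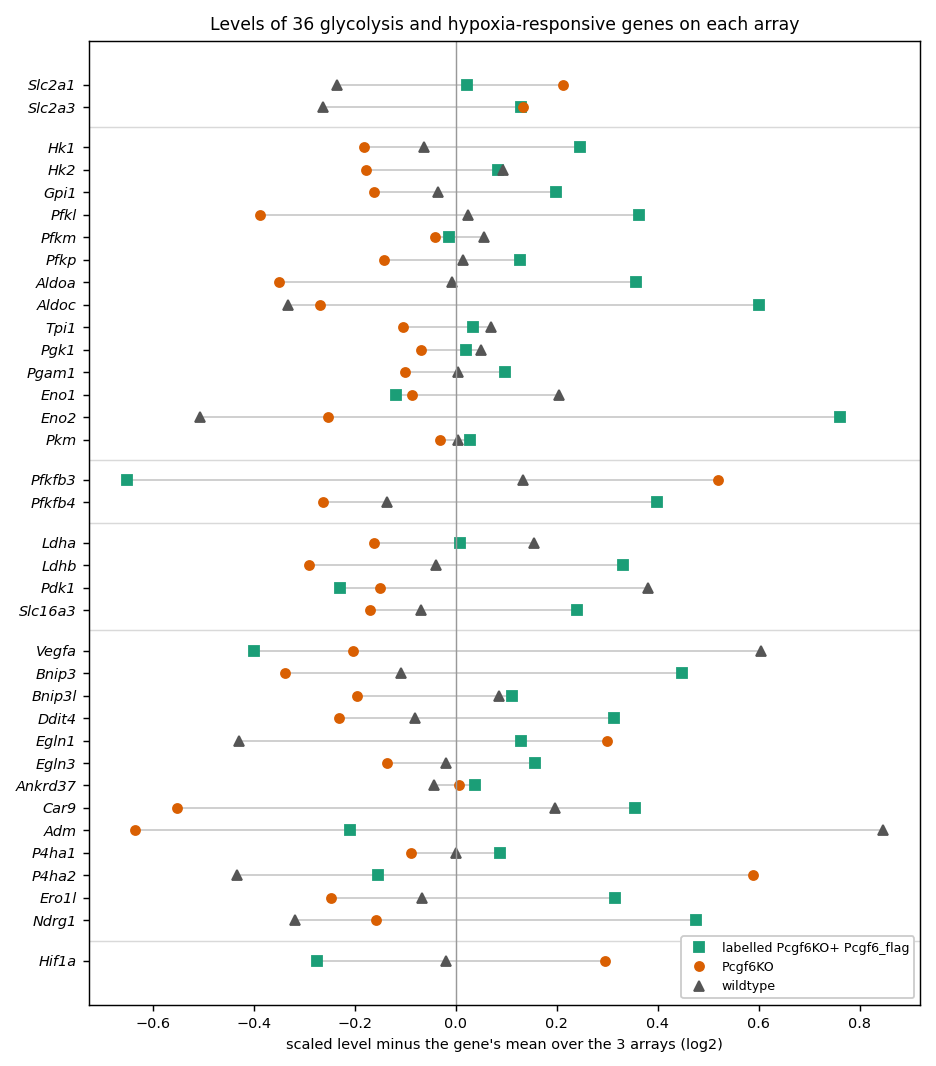
The horizontal axis gives each gene's scaled level minus its own mean over the 3 arrays (log2 units), with squares for the array labelled Pcgf6KO+ Pcgf6_flag, circles for Pcgf6KO and triangles for wildtype. Each row is 1 of the 36 measured genes, grouped from top to bottom as glucose transporters, glycolytic enzymes, fructose 2,6-bisphosphate enzymes, lactate and pyruvate handling, other HIF targets and Hif1a. The widest rows are Adm with a range of 1.48, Eno2 with 1.27 and Pfkfb3 with 1.17.

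Both glucose transporter genes were lowest in wildtype. Slc2a1, the widely expressed glucose transporter GLUT1, had levels of 3.86 on the array labelled Pcgf6KO+ Pcgf6_flag, 4.05 in Pcgf6KO and 3.60 in wildtype. Slc2a3, the high-affinity transporter GLUT3, had levels of 3.81, 3.81 and 3.41 on the arrays in the same order. The Pcgf6KO minus wildtype difference was 0.45 for Slc2a1 and 0.40 for Slc2a3, which is 1.36-fold and 1.32-fold. Neither reached 2-fold, but both lay above 0 in a range of brightness where the median difference of all genes was below 0. Among the 1215 genes with a mean level from 3 to 4, that median was -0.11 with an SD over genes of 0.18.

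Among the 14 glycolytic enzyme genes, 12 had a lower level in Pcgf6KO than in wildtype and 2 a higher one, none by 2-fold, although without scaling between arrays only 6 were lower and 8 higher. Set against the median of all genes, 12 were lower with and without that scaling. These counts had to match, since that scaling shifts all genes of an array alike. With normexp background correction 10 were lower than that median, and with quantile normalization 11. Of the 14 genes, 13 had higher levels on the array labelled Pcgf6KO+ Pcgf6_flag than in Pcgf6KO, and between 10 and 14 did under the other scalings. Of all genes, 47.0% were higher in Pcgf6KO than in wildtype, and 52.4% were higher on the array labelled Pcgf6KO+ Pcgf6_flag than in Pcgf6KO. Among all 3720 genes with a mean level of 2 or more, as many of the 14 had, these shares were 28.2% and 65.7%. The hexokinase genes stayed within 2-fold: Hk1 was at 1.88 on the array labelled Pcgf6KO+ Pcgf6_flag, 1.45 in Pcgf6KO and 1.57 in wildtype. Hk2, the inducible hexokinase, was at 2.86, 2.60 and 2.87 in the same order. Gpi1, which isomerises glucose 6-phosphate, was at 4.46, 4.10 and 4.22.

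The phosphofructokinase genes encode the liver, muscle and platelet forms of the enzyme at the committed step. Pfkl was at 2.32 on the array labelled Pcgf6KO+ Pcgf6_flag, 1.57 in Pcgf6KO and 1.98 in wildtype. Pfkm was spotted 10 times per array, which shows how tightly one probe is read. Its spots ran from 1.43 to 1.66 on the array labelled Pcgf6KO+ Pcgf6_flag with a median of 1.54, from 1.46 to 1.58 in Pcgf6KO with a median of 1.53, and from 1.53 to 1.66 in wildtype with a median of 1.63. The spots of the 3 arrays overlapped, and the differences between the means of Pfkm ran from -0.10 to 0.03. Pfkp was read by a pair of probes that disagreed in size: the difference of the array labelled Pcgf6KO+ Pcgf6_flag from Pcgf6KO was 0.27 on one and 0.82 on the other.

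Of the aldolase genes, Aldoa was at 5.42 on the array labelled Pcgf6KO+ Pcgf6_flag, 4.71 in Pcgf6KO and 5.05 in wildtype. Aldoc, an aldolase isozyme best known from brain, was at 2.80, 1.93 and 1.87 in the same order. The array labelled Pcgf6KO+ Pcgf6_flag was thus 1.83-fold above Pcgf6KO and 1.91-fold above wildtype for Aldoc, just short of 2-fold in both. Tpi1, Pgk1, Pgam1 and Pkm, which encode triosephosphate isomerase, phosphoglycerate kinase, phosphoglycerate mutase and pyruvate kinase, had differences from -0.17 to 0.20 over all 3 comparisons. Eno1, the ubiquitous enolase, was at 4.56 on the array labelled Pcgf6KO+ Pcgf6_flag, 4.59 in Pcgf6KO and 4.89 in wildtype. Aldoa, Pgk1, Ldha and several other members have processed pseudogenes, and whether their probes read only the active gene was not tested.

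Eno2, the enolase isozyme typical of neurons, was the glycolytic enzyme gene with the widest range. Its signal was 3491 on the array labelled Pcgf6KO+ Pcgf6_flag, 1608 in Pcgf6KO and 1230 in wildtype, and the levels were -0.40, -1.42 and -1.67. The array labelled Pcgf6KO+ Pcgf6_flag was the high one, at 2.02-fold over Pcgf6KO and 2.41-fold over wildtype. Pcgf6KO and wildtype were closer to each other, with a difference of 0.25.

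The Pfkfb genes encode bifunctional enzymes that set fructose 2,6-bisphosphate, the activator of phosphofructokinase, and they went in opposite directions between the array labelled Pcgf6KO+ Pcgf6_flag and Pcgf6KO. Pfkfb3 gave a signal of 6552 on the array labelled Pcgf6KO+ Pcgf6_flag, 13700.3 in Pcgf6KO and 9564 in wildtype, with levels of 0.50, 1.67 and 1.29. It was 2.25-fold lower on the array labelled Pcgf6KO+ Pcgf6_flag than in Pcgf6KO. Its other probe was dim, with signals of 105, 126 and 45.3 on the arrays in that order, and it was not well above background in wildtype. On this dim probe the difference between the array labelled Pcgf6KO+ Pcgf6_flag and Pcgf6KO was -0.37. Pfkfb4, in contrast, was at -0.67 on the array labelled Pcgf6KO+ Pcgf6_flag, -1.33 in Pcgf6KO and -1.21 in wildtype. Its second probe was not well above background on any array.

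Genes that handle pyruvate and lactate were slightly lower in Pcgf6KO than in wildtype in 4 of 4 measured cases, with differences from -0.53 to -0.10, and in 3 of 4 without scaling between arrays. Pdk1, the kinase that inhibits pyruvate dehydrogenase, was at 1.68 on the array labelled Pcgf6KO+ Pcgf6_flag, 1.76 in Pcgf6KO and 2.29 in wildtype, so wildtype stood highest. Ldhb, a lactate dehydrogenase subunit, was at 3.72, 3.10 and 3.35 in the same order. Slc16a3, the lactate exporter MCT4, was at 3.71, 3.30 and 3.40, and its second probe gave nearly the same differences. Ldha, the other lactate dehydrogenase subunit, gave no settled direction. Its brightest probe differed by -0.32 between Pcgf6KO and wildtype, whereas its other probes differed by 0.27 and 0.04.

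Of the 13 other HIF targets, Adm, P4ha2 and Vegfa passed 2-fold in at least 1 comparison. Adm encodes adrenomedullin, a vasodilator peptide. Its signal was 1008 on the array labelled Pcgf6KO+ Pcgf6_flag, 697 in Pcgf6KO and 1775 in wildtype, with levels of -2.20, -2.62 and -1.14. Wildtype was the high array: Adm was 2.79-fold lower in Pcgf6KO, and 2.08-fold lower on the array labelled Pcgf6KO+ Pcgf6_flag.

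Vegfa, the angiogenic growth factor gene, showed the same order of wildtype above both edited lines. The brighter of its probes gave signals of 3550 on the array labelled Pcgf6KO+ Pcgf6_flag, 3783 in Pcgf6KO and 6038 in wildtype, and levels of -0.38, -0.18 and 0.62. Vegfa was 1.75-fold lower in Pcgf6KO than in wildtype and 2.01-fold lower on the array labelled Pcgf6KO+ Pcgf6_flag. The dimmer probe gave differences of -1.04 for Pcgf6KO and -1.08 for the array labelled Pcgf6KO+ Pcgf6_flag, each against wildtype. That probe would put Vegfa past 2-fold in both edited lines.

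P4ha2 encodes a collagen prolyl 4-hydroxylase subunit and was highest in Pcgf6KO. Its signal was 7168 on the array labelled Pcgf6KO+ Pcgf6_flag, 11142 in Pcgf6KO and 5010 in wildtype, and its levels were 0.63, 1.38 and 0.35. It was 2.03-fold higher in Pcgf6KO than in wildtype, and 1.67-fold lower on the array labelled Pcgf6KO+ Pcgf6_flag than in Pcgf6KO. P4ha1, its paralog, differed by -0.09 between Pcgf6KO and wildtype on its brighter probe and by -0.59 on the dimmer one.

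The array labelled Pcgf6KO+ Pcgf6_flag was the highest of the 3 for 9 of the 13 other HIF targets, or 69.2%. It was the highest for 21 of all 36 measured members, or 58.3%. The share was 36.8% of all genes and 41.7% of those with a mean level of 2 or more. With each array scaled to its median, that array was above wildtype for only 8 of the 13 and 19 of the 36. The counts of 9 and 21 were therefore smaller under that scaling. Bnip3, a mitophagy receptor, was at 2.99 on that array, 2.20 in Pcgf6KO and 2.44 in wildtype. Its 3 probes gave differences of 0.79, 0.85 and 0.86 between the array labelled Pcgf6KO+ Pcgf6_flag and Pcgf6KO, so they matched closely in that comparison. Ndrg1, a stress-responsive gene, was at 1.73 on the array labelled Pcgf6KO+ Pcgf6_flag, 1.10 in Pcgf6KO and 0.94 in wildtype. Ddit4, an inhibitor of mTORC1 signalling, was at 2.53, 1.98 and 2.13, and Ero1l (now Ero1a), an oxidase of the endoplasmic reticulum, was at -1.16, -1.72 and -1.54 in the same order. None of these 4 reached 2-fold.

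Car9, a carbonic anhydrase widely used as a hypoxia marker, was lowest in Pcgf6KO. Its levels were -1.71 on the array labelled Pcgf6KO+ Pcgf6_flag, -2.62 in Pcgf6KO and -1.87 in wildtype, and its difference between Pcgf6KO and wildtype was -0.75. Egln1, the main HIF prolyl hydroxylase, gave dim signals of 146 on the array labelled Pcgf6KO+ Pcgf6_flag, 152 in Pcgf6KO and 83.8 in wildtype, so its difference of 0.73 between Pcgf6KO and wildtype rests on dim spots. The lowest signal called well above background was 103, 53.4 and 52.7 on the arrays in that order. Egln3, another such hydroxylase, Ankrd37 and Bnip3l, a paralog of Bnip3, differed by -0.28 to 0.31 over the 3 comparisons on their brightest probes. Hif1a was at 0.27 on the array labelled Pcgf6KO+ Pcgf6_flag, 0.84 in Pcgf6KO and 0.53 in wildtype. Pcgf6KO was thus the high array for Hif1a, and the difference of the array labelled Pcgf6KO+ Pcgf6_flag from Pcgf6KO was -0.57.

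The promoters of the 5 genes that passed 2-fold are shown because HIF binds a short core, ACGTG or GCGTG, within hypoxia response elements. Each line gives the 250 bases before the RefSeq transcription start of build GRCm38.p6, 5′ to 3′ on the gene's strand, from the start furthest upstream where RefSeq lists several. Capitals mark every ACGTG or GCGTG on either strand, the other strand reading as CACGT or CACGC.
Adm (chr7:110627407-110627656, + strand): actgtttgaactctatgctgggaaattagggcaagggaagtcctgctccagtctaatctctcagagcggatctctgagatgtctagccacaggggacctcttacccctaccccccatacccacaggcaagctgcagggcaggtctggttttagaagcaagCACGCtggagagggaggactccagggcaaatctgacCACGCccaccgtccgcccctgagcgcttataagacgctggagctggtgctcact
P4ha2 (chr11:54100674-54100923, + strand): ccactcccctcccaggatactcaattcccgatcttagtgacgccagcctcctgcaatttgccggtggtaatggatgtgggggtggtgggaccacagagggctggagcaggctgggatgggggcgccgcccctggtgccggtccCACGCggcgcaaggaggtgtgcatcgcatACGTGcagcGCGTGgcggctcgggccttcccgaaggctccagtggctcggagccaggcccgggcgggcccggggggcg
Pfkfb3 (chr2:11553930-11554179, - strand): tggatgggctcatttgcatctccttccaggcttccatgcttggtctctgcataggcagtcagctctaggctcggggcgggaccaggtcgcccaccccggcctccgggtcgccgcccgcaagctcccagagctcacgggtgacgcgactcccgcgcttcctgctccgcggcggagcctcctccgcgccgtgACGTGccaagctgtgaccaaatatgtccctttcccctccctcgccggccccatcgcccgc
Eno2 (chr6:124769674-124769923, - strand): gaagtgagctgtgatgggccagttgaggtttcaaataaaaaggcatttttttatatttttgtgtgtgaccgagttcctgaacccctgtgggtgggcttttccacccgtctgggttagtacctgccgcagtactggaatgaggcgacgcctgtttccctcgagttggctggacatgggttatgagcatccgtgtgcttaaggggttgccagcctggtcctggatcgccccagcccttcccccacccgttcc
Vegfa (chr17:46032378-46032627, - strand): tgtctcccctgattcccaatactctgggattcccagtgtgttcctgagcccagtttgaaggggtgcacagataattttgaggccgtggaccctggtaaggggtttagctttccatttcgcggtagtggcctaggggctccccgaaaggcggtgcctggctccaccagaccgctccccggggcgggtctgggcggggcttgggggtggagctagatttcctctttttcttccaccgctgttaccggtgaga
Adm held 2 cores, P4ha2 held 3 and Pfkfb3 held 1, whereas the windows of Eno2 and Vegfa held 0. The absence of a match says only that these letters are not in this window. A promoter window was at hand for 34 of the 37 members, and 27 of these, or 79.4%, held at least 1 core. The other 3 were Slc2a3, Bnip3l and Ndrg1. Of 27025 promoters of all genes 38.6% did, and of 12749 promoters of genes measured on at least 1 array 52.6%. The share was 72.7% of 22 glycolysis members and 90.9% of 11 other HIF targets. The members were listed as HIF targets or as glycolysis genes, many of which HIF activates. A larger share with cores can therefore follow from that choice and is not a separate result. The core overlaps the palindrome CACGTG, which counts on both strands. Counting only cores outside that palindrome, the share was 76.5% of the members and 49.0% of the measured genes. The members' windows also had a higher median GC content, 63.4% against 58.8%, and its part in the difference was not tested. Cores were present in windows of genes that were higher in Pcgf6KO (P4ha2) and of genes that were lower (Adm).

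In the first comparison, Pcgf6KO against wildtype, most glycolysis and hypoxia genes stayed within 2-fold. P4ha2 was the only member at least 2-fold higher and Adm the only member at least 2-fold lower, and the other 34 measured members lay between. For all 14997 genes with both arrays measured, the share past 2-fold was 5.81% above, 2.81% below and 8.62% in either direction, so 2 of 36 members was no larger a share. Small differences below 0 were the more frequent: 26 of 36 members lay below 0 and 10 above, but without scaling between arrays 16 lay below 0 and 20 above. Set against the median of all genes, 26 were lower in both cases, which had to match because that scaling shifts a whole array. With normexp background correction 24 were lower than that median, and with quantile normalization 25. Of all genes 47.0% lay above 0, and of those with a mean level of 2 or more 28.2%. The median was -0.12 for the 22 measured glycolysis members and -0.15 for the other HIF targets, against -0.02 for all genes. Differences larger than 2 SDs of the single-spot difference, which covers only the noise between spots, were seen in 7 members above 0 and 12 below, and in 4197 genes above and 4252 below of all 14997, so the members' share was no larger.

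In the second comparison, the array labelled Pcgf6KO+ Pcgf6_flag against Pcgf6KO, most members were somewhat higher. Eno2 was the only one at least 2-fold higher and Pfkfb3 the only one at least 2-fold lower. Among all 14241 genes measured on both arrays the shares were 5.4% and 8.37%, or 13.8% in either direction. Of 36 members 27 lay above 0, where 52.4% of all genes did and 65.7% of those with a mean level of 2 or more. Under the other scalings 22 to 30 members lay above 0, and 24 to 27 lay above the median of all genes. The median was 0.23 for glycolysis members and 0.31 for the other HIF targets, against 0.03 for all genes. The 1.5-fold line was passed by 27.7% of all genes, and by 11 members: Aldoa, Aldoc, Eno2, Ldhb, Pfkl, Pfkfb4, Bnip3, Car9 and Ndrg1 were higher, and Pfkfb3 and P4ha2 lower.

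The array labelled Pcgf6KO+ Pcgf6_flag against wildtype shares its arrays with the comparisons above, so its values follow from them. Eno2 was at least 2-fold higher, and Adm and Vegfa at least 2-fold lower, of 36 members. By that rule 4.9% of 14193 genes were higher and 4.81% lower, or 9.71% in either direction. Vegfa, 2.01-fold lower, lay close to the threshold, as did Eno2 with 2.02-fold against Pcgf6KO and P4ha2 with 2.03-fold in Pcgf6KO against wildtype. The median was 0.17 for glycolysis members and 0.18 for the other HIF targets, against -0.02 for all genes. With each array scaled to its median, they were 0.0483 and 0.0510, against -0.14 for all genes.

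**Figure D2:**
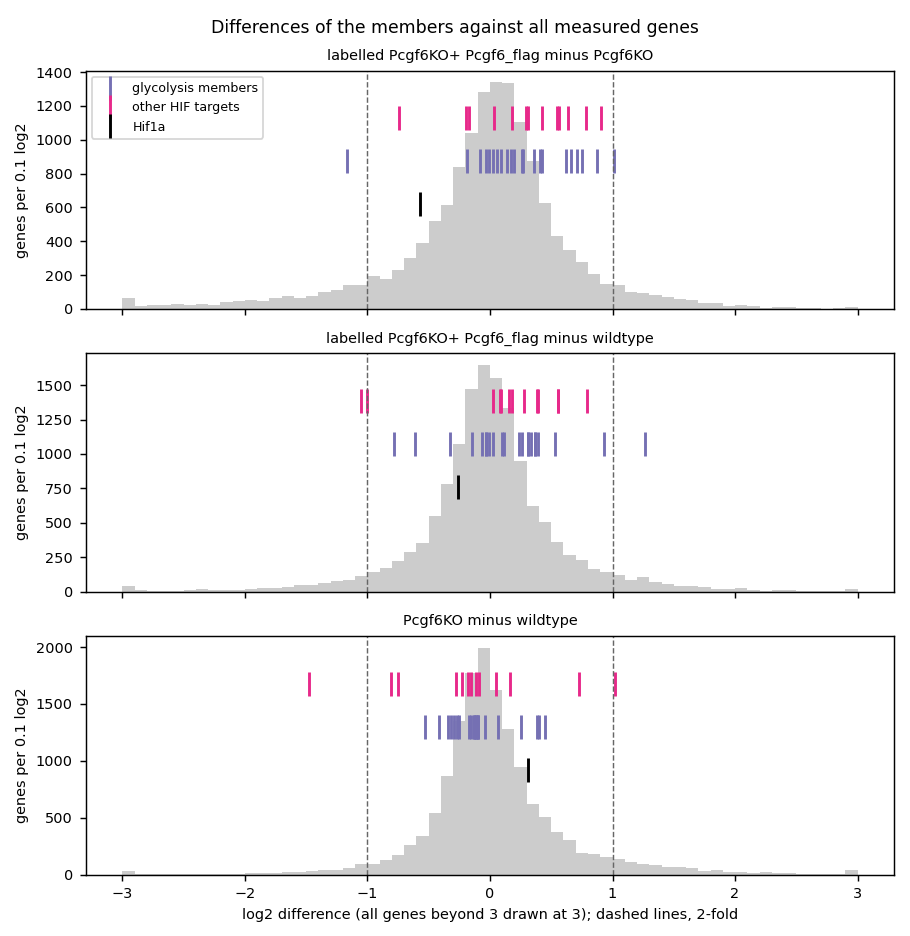
Each panel shows the log2 differences of all genes measured on both arrays as a grey histogram (genes per 0.1 log2 unit, values beyond 3 drawn at 3), with glycolysis members, other HIF targets and Hif1a as vertical ticks at arbitrary height and dashed lines at 2-fold. In the top panel (array labelled Pcgf6KO+ Pcgf6_flag minus Pcgf6KO) the ticks of both member groups lie mostly right of 0, with medians of 0.23 and 0.31, and in the bottom panel (Pcgf6KO minus wildtype) mostly left of it, with medians of -0.12 and -0.15, where the glycolysis median is 0.00884 without scaling between arrays.

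The median difference of all genes changed with brightness, and that of the members did not follow it throughout. Among all 3720 genes with a mean level of 2 or more, the median was -0.10 for Pcgf6KO minus wildtype and 0.09 for the array labelled Pcgf6KO+ Pcgf6_flag minus Pcgf6KO. The 15 glycolysis members in that range had medians of -0.13 and 0.20. In the brightest range, levels of 4 and above, 5 members had a median of -0.29 for Pcgf6KO minus wildtype and 0.17 for the array labelled Pcgf6KO+ Pcgf6_flag minus Pcgf6KO, and all 370 genes had medians of -0.17 and 0.19. At lower levels the members stood further from all genes between the array labelled Pcgf6KO+ Pcgf6_flag and Pcgf6KO. Their median was 0.54 for 5 members with levels from 2 to 3, against 0.07 for all genes, and 0.61 for 4 members with levels from -2 to 0, against -0.12. From 0 to 2 it was 0.03 for 11 members, against -0.01 for all genes. Pcgf6KO was the lowest of the 3 arrays for 11 of the 15 bright glycolysis members, or 73.3%, and for 54.3% of all genes in that range. The part of brightness in the members' shift was not tested.

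**Figure D3:**
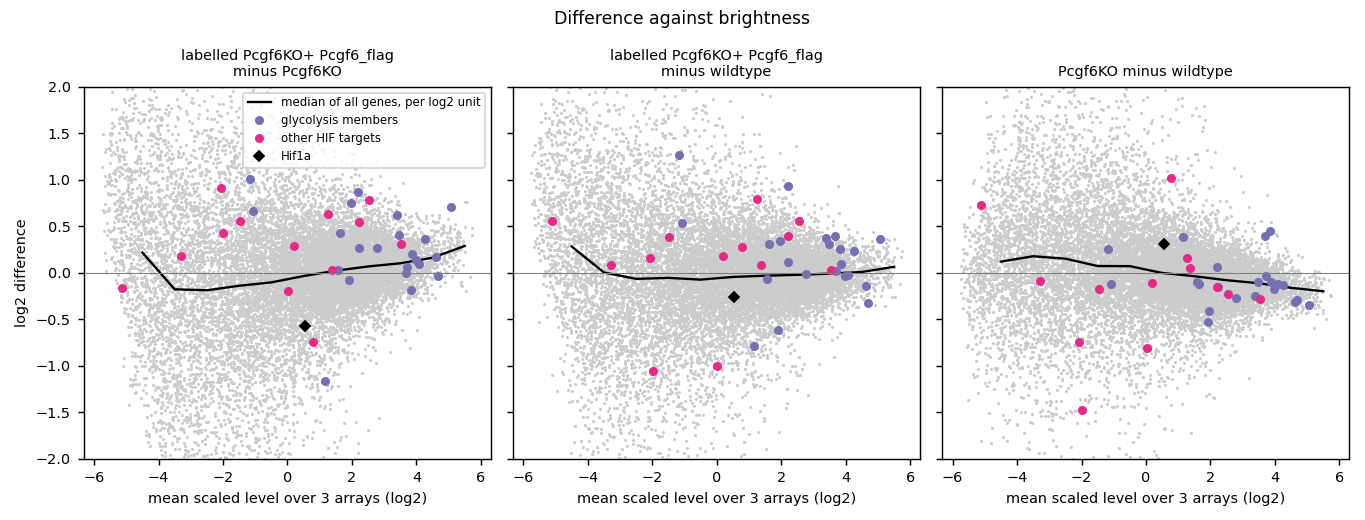
The horizontal axis is the mean scaled level over the 3 arrays and the vertical axis the log2 difference, with grey points for all genes measured on all 3 arrays, coloured points for the members, a diamond for Hif1a and a black line for the median of all genes in each log2 unit. Differences beyond 2 lie outside the axis. The line falls with level in the Pcgf6KO minus wildtype panel, to -0.17 for levels of 4 and above, where the 5 members have a median of -0.29.

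Different probes of a gene read the same RNA on the same arrays, so they are not replicates of a group. Their agreement shows only how far the reading of a gene depended on the probe. For 11 members with several probes measured on all arrays, all probes had the same sign in 7 for Pcgf6KO minus wildtype and in 8 for each comparison with the array labelled Pcgf6KO+ Pcgf6_flag. The exceptions were Bnip3, Egln3, Ldha and Pfkp in the first case and Bnip3l, Ldha and P4ha1 in the others. The median spread between probes of a member was 0.19 for Pcgf6KO minus wildtype and 0.16 for both other comparisons, which is as large as many of the differences. The widest spread was 0.98, for P4ha1 between the array labelled Pcgf6KO+ Pcgf6_flag and wildtype.

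**Figure D4:**
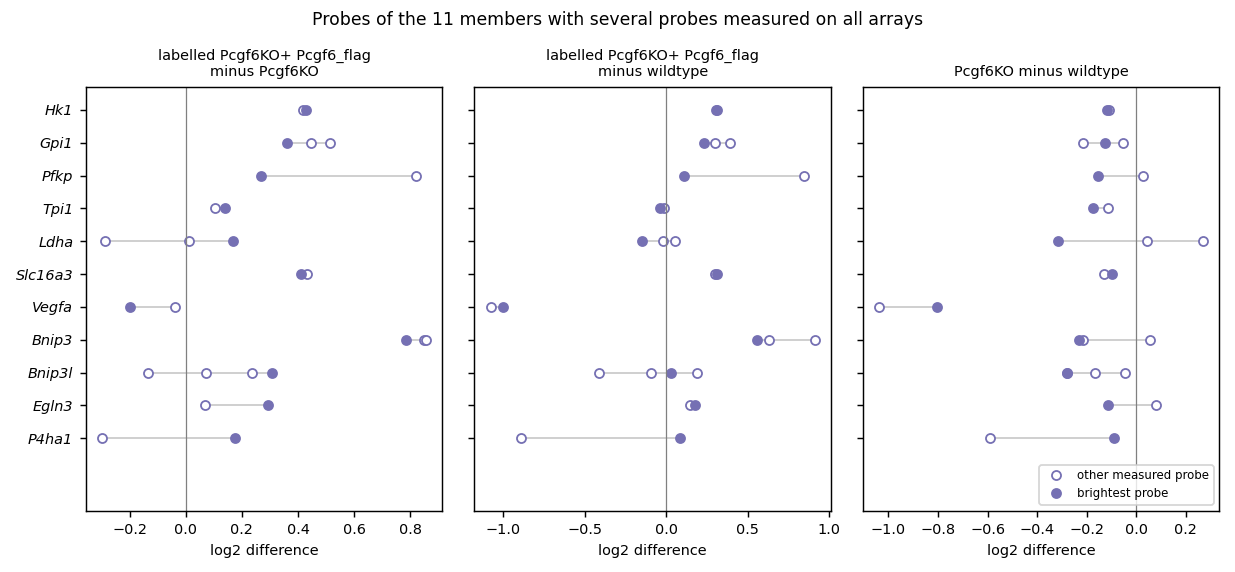
Rows are the 11 members with several probes measured on all arrays, and the horizontal axis is the log2 difference of each probe, filled for the probe with the highest mean level and open for the others. Bnip3, Slc16a3 and Hk1 probes lie close together between the array labelled Pcgf6KO+ Pcgf6_flag and Pcgf6KO, whereas those of Ldha lie on both sides of 0 in every comparison.

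Further genes of the same pathways were read from lists that hold 0 of the members. Gapdh, the glyceraldehyde 3-phosphate dehydrogenase gene often used as a reference, was at 5.25 on the array labelled Pcgf6KO+ Pcgf6_flag, 4.81 in Pcgf6KO and 5.07 in wildtype, so it followed the order seen for Aldoa. Of 28 other genes of glycolysis and gluconeogenesis, 22 were measured in each pair. Between the array labelled Pcgf6KO+ Pcgf6_flag and Pcgf6KO 7 were at least 2-fold higher and 1 lower, where 13.8% of all genes passed 2-fold in either direction. Ldhd, a D-lactate dehydrogenase gene, was higher by 2.04 and G6pc, the glucose 6-phosphatase gene, by 1.76. Fbp2, a fructose bisphosphatase gene, was lower with -1.97. Between Pcgf6KO and wildtype 1 was higher, Fbp2 with 1.48, and 1 lower, Ldhd with -1.18. Against wildtype, 2 genes were at least 2-fold higher on the array labelled Pcgf6KO+ Pcgf6_flag, including G6pc with 1.72, and 0 were lower. Ldhd, G6pc and Fbp2 were dim, with levels of -1.94 or lower on every array. Among all genes with mean levels under -2, 34.6% passed 2-fold between the array labelled Pcgf6KO+ Pcgf6_flag and Pcgf6KO, 25.7% between it and wildtype, and 18.4% between Pcgf6KO and wildtype. Of the 7 higher genes, 3 had mean levels from -2 to 0, where 20.1% of all genes passed 2-fold between the array labelled Pcgf6KO+ Pcgf6_flag and Pcgf6KO. These, named after their values were seen, were the muscle phosphoglycerate mutase gene Pgam2 with 1.69, the glucose transporter gene Slc2a4 with 1.14 and the pyruvate carboxylase gene Pcx with 1.03.

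Of 7 germ cell isozymes of glycolysis on the array, 4 were well above background on each array, but not the same 4. Pgk2, the testis phosphoglycerate kinase gene, and Aldoart1, both named after their values were seen, were well above background on none of the arrays. Gapdhs was well above background only on the array labelled Pcgf6KO+ Pcgf6_flag, where it was at least 2.59-fold above Pcgf6KO and at least 2.39-fold above wildtype. Those folds are set against the lowest signal called above background on the other array. Pdha2, of the same list and named after its value was seen, was well above background only in Pcgf6KO and wildtype. Its levels were low, at -5.92 on the array labelled Pcgf6KO+ Pcgf6_flag, -5.34 in Pcgf6KO and -5.61 in wildtype. Ldhc, a testis lactate dehydrogenase gene named here after its value was seen, was at -1.20 on the array labelled Pcgf6KO+ Pcgf6_flag, -1.49 in Pcgf6KO and -1.59 in wildtype.

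Regulators of HIF stayed within 2-fold between Pcgf6KO and wildtype, with 0 of 16 at least 2-fold higher or lower and a median of -0.05. Of all genes, 5.81% were higher and 2.81% lower by that rule. Arnt2, a partner of HIF alpha subunits, differed by -1.58 between the array labelled Pcgf6KO+ Pcgf6_flag and Pcgf6KO and was the only one of the 16 past 2-fold there. Among 41 further HIF targets, 1 of 37 measured genes was at least 2-fold higher and 2 lower in Pcgf6KO than in wildtype. Plod2, a collagen lysyl hydroxylase gene, was higher by 1.05, and Selenbp1 was among the lower ones with -1.05. Between the array labelled Pcgf6KO+ Pcgf6_flag and Pcgf6KO, 4 of 36 were higher, including the clock-related repressor gene Bhlhe41 with 2.09, the inducible nitric oxide synthase gene Nos2 with 1.89 and Selenbp1 with 1.78, and 3 were lower, including Plod2 with -1.64. Of all genes, 5.4% were higher and 8.37% lower in that comparison. The median of these further targets was -0.02 there, while that of the 13 HIF targets among the members was 0.31. With normexp background correction these medians were 0.09 and 0.31. The median of the 13 was smaller under other probe rules, as given in the closing section. Against wildtype, 5 of 36 further targets were higher on the array labelled Pcgf6KO+ Pcgf6_flag, including Bhlhe41 with 1.76 and Nos2 with 1.70. In the same comparison 2 were lower, including Anxa1, a gene of a phospholipid-binding protein, with -1.72. Of all genes, 4.9% were higher and 4.81% lower there.

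Of 25 genes of pyruvate oxidation and of the citric acid cycle, 0 passed 2-fold in any comparison. Their medians were -0.01 for Pcgf6KO minus wildtype, -0.02 for the array labelled Pcgf6KO+ Pcgf6_flag minus Pcgf6KO and -0.02 for it minus wildtype. Of all genes, 8.62%, 13.8% and 9.71% passed 2-fold in these comparisons. Most of the 25 had mean levels from 2 to 4, however. Among all genes with levels from 2 to 3 the shares were only 0.33%, 0.80% and 0.80%, so the count of 0 does not set these genes apart. Without scaling between arrays these medians were 0.12, 0.0846 and 0.21, against 0.11, 0.13 and 0.22 for all genes. The 8 genes of the pentose phosphate pathway, which branches from glycolysis, were all lower in Pcgf6KO than in wildtype, with differences from -0.66 to -0.02 and a median of -0.40, and 6 of 8 were lower without scaling between arrays. On the array labelled Pcgf6KO+ Pcgf6_flag 6 of 8 were higher than in Pcgf6KO, with a median of 0.30, and the median against wildtype was -0.04. None passed 2-fold.

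**Figure D5:**
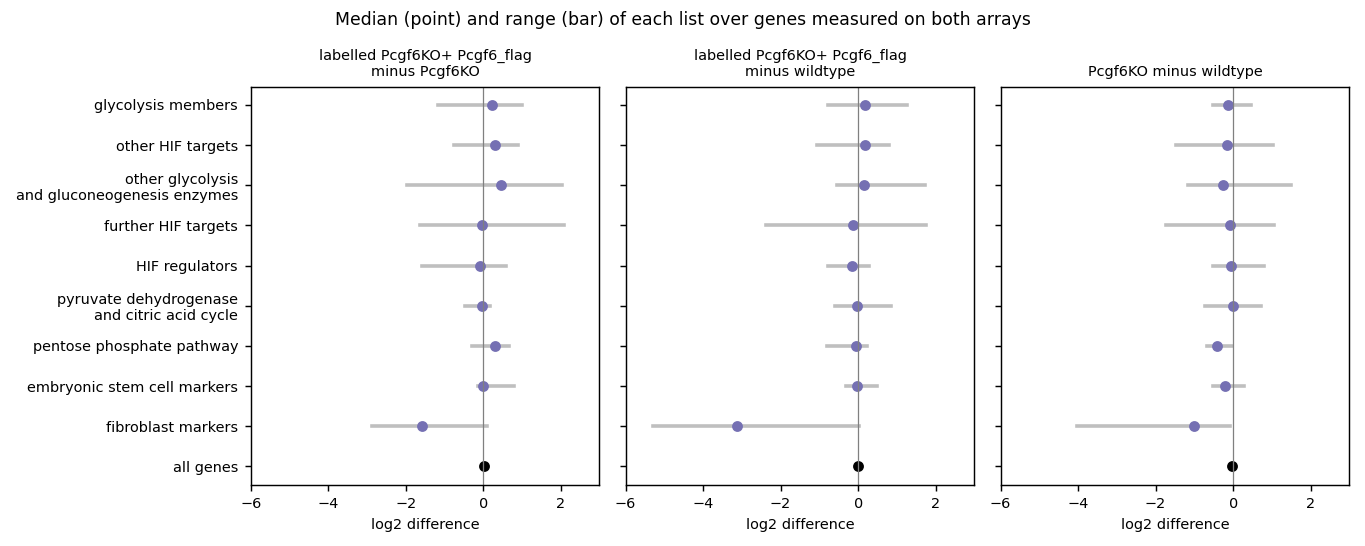
Points are medians and bars the lowest and highest log2 difference of each gene list over genes measured on both arrays, with all genes as a black point without a bar. Fibroblast markers stand far from the other lists, with medians of -1.58, -3.12 and -1.01 from the left panel to the right, whereas the medians of the glycolysis members are 0.23, 0.17 and -0.12, the last of which is 0.00884 without scaling between arrays.

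Markers of fibroblasts, the cell type of the feeder layer, moved with the comparisons. Of 20 fibroblast markers, 14 were well above background on the array labelled Pcgf6KO+ Pcgf6_flag, 17 in Pcgf6KO and 19 in wildtype. Their summed signal, in multiples of each array's 75th percentile, was 38.3, 45.6 and 79.5 in that order, with single markers from a level of -8.57 to 4.05. Bright markers weigh most in this sum. Vim, Fn1 and Sparc, named after their values were seen, had levels from 3.31 to 4.05. They differed from wildtype by -0.69, -0.09 and -0.22 in Pcgf6KO. On the array labelled Pcgf6KO+ Pcgf6_flag they differed from it by -0.72, 0.01 and -0.14. Of 17 markers measured in Pcgf6KO and wildtype, 9 were lower in Pcgf6KO by 2-fold or more and 0 were higher. By that rule 2.81% of all genes were lower and 5.81% higher. The matrix gene Lox differed by -4.04 and Fbln2 by -3.74. Prrx1 was at least 37.1-fold lower and Postn at least 12.0-fold lower in Pcgf6KO, and both were not well above background in either edited line. Lum was well above background on no array. Of 14 markers measured on the array labelled Pcgf6KO+ Pcgf6_flag and in Pcgf6KO, 8 were lower by 2-fold or more on that array, including Col3a1 with -2.82 and Col1a2 with -2.74. In that comparison 8.37% of all genes were lower by the same rule. Adm, Vegfa and Pdk1 were lower in both edited lines than in wildtype, as most of these markers were. Other members were so by smaller amounts, among them Eno1. It differed from wildtype by -0.29 in Pcgf6KO and by -0.32 on the array labelled Pcgf6KO+ Pcgf6_flag. P4ha2, Plod2 and Slc2a1 were higher in Pcgf6KO than in wildtype while the markers were lower there. The part of feeder cell RNA in any of these levels was not tested.

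Adm had the widest range of all members, and the genes with the most similar pattern over the 3 arrays were Crisp1, Rdh16f2 and the predicted gene Gm8579. Their Euclidean distances from Adm, after centring each gene on its mean, were 0.05, 0.05 and 0.07 among 13977 genes outside the lists. With 3 arrays a close match is easily found among so many genes.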

How the data were processed

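The deposited scanner files give spot intensity on a linear scale, background-subtracted by Agilent Feature Extraction 11.5.1.1 per the file headers. The submitters' processing notes name version 10.7. The authors' value table matched the processed signal to within 1e-06 of its size for 55249 of 55249 single-spot probes on each array, so it is linear, neither scaled nor centred, and its column medians were 313, 273 and 243 for Pcgf6KO+ Pcgf6_flag, Pcgf6KO and wildtype.

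Control spots and 192, 158 and 141 outlier spots on the arrays in that order were left out. No spot, 0 of 59305 per array, was saturated. Log2 values of repeated spots were averaged and each array's 75th percentile was subtracted. A probe counted as measured where over 0.5 of its spots were well above background. Unversioned accessions, looked up among RefSeq genes of GRCm38.p6, named 26762 of 55681 probes, and the other 28919 were unnamed here. The array was designed on mm9, so none of its coordinates were used. A gene was read from its measured probe with the highest mean level. Of 37 members, 1 symbol was updated. Calls were differences of at least 2-fold, without a test, since there was 1 array per group, and precision is limited by that number of arrays. The calling step was tested on simulated data, in which every probe was measured and only noise like that between repeated spots was added. That test cannot show how far cultures or slides differ.

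All 37 members were named, and of other lists up to 4 genes per list and comparison past 2-fold, Gapdh and Pcgf6, and the 3 genes nearest in pattern to the member with the widest range. Genes beyond this rule are marked as such, and some genes that it names are not reported here. The members and lists were chosen with earlier results of these data known. Alternatives were normexp background correction (limma 3.58.1, offset 50, on the median spot signal), other scalings, the value table, filters, probe rules, thresholds of 1.5-fold and 3-fold and keeping outlier spots. Slide as a block could not be fitted, since slide 2 holds 1 array. The software was Python 3.11.15, R 4.3.3, numpy 2.4.6, pandas 2.3.3 and matplotlib 3.10.9.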

Additional observations from a re-analysis of the deposited data

How the results depend on the processing

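No paired analysis was possible because each group has 1 array. Of 105 recomputed counts and medians under 13 alternatives, 80 moved by less than 1.5 times or less than the SD of the single-spot difference, and 25 moved further. The count of members past 2-fold, main value 2 for Pcgf6KO against wildtype, was 1 with median scaling and with bright genes only, 4 with the second brightest probe, 5 at 1.5-fold (19.2% of all genes) and 0 at 3-fold (3.09%). For the array labelled Pcgf6KO+ Pcgf6_flag against Pcgf6KO, main value 2, it was 1 with median scaling, with the percentile of commonly measured probes, with bright genes only, with the mean over probes and with the second brightest probe, 11 at 1.5-fold (27.7%) and 0 at 3-fold (5.63%). Against wildtype, main value 3, it was 1 with normexp and with bright genes only, 7 at 1.5-fold (21.9%) and 0 at 3-fold (3.38%). Bright genes only leaves out Adm and Eno2 by construction. Pfkfb3 differed from Pcgf6KO by -0.77 as a mean over probes and by -0.37 on its dim probe.

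The medians for the array labelled Pcgf6KO+ Pcgf6_flag against wildtype were 0.0483 for glycolysis members and 0.0510 for other HIF targets with median scaling, and 0.41 and 0.41 unscaled, while the median of all genes was -0.14 and 0.22 under these settings. That for glycolysis members was 0.30 with the second brightest probe. Against Pcgf6KO, the median of other HIF targets was 0.18 as a mean over probes and 0.0713 with the second brightest probe. For Pcgf6KO against wildtype, unscaled medians were 0.00884 for glycolysis members, a change of sign, and -0.0196 for other HIF targets, with 0.11 for all genes. The share of higher genes among all calls of the array labelled Pcgf6KO+ Pcgf6_flag against wildtype was 39.2% with median scaling and 70.5% unscaled, against 50.5%. For Pcgf6KO against wildtype it was 77.7% unscaled, against 67.4%. The number of all genes past 2-fold, 1293, 1961 and 1378 for Pcgf6KO against wildtype, the array labelled Pcgf6KO+ Pcgf6_flag against Pcgf6KO and that array against wildtype, was 2465, 4155 and 3269 with no filter on dim probes and 117, 231 and 156 with bright genes only. In each comparison 24 of 36 members kept their sign under every alternative. The unscaled values and the second brightest probe were chosen after the data were examined, and the causes of these moves were not tested. Egln1, with signals of 146, 152 and 83.8 on the arrays labelled Pcgf6KO+ Pcgf6_flag, Pcgf6KO and wildtype, is limited by low signal over background.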
